A study of Mus musculus with 48 samples.

Results

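Fcgr1, Fcgr4 and Fcgr2b encode 3 receptors for the constant (Fc) part of immunoglobulin G, and Fcer1g encodes the common gamma chain. These 4 genes were taken by symbol from the 547 endogenous genes of a mouse immunology panel, and all 4 passed the filter on low counts, as 491 genes of the panel did. Fcgr1 is the high-affinity activating receptor and Fcgr4 a further activating receptor, both found mainly on monocytes and macrophages. Neither signals alone. Each needs the common chain, whose cytoplasmic activation motif (ITAM) recruits the kinase Syk and which several other receptors, such as the IgE receptor, also use. Fcgr2b is the inhibitory receptor. It carries an inhibitory motif (ITIM) that recruits phosphatases, and it is made by B cells, where it dampens the antigen receptor, as well as by macrophages. The balance of activating and inhibitory receptors on a macrophage is known to set how strongly immune complexes activate it. In adipose tissue of obese animals, macrophages and B cells accumulate and IgG can build up.

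The measurements came from whole epididymal fat pads of C3H/HeOuJ mice, an inbred strain, and the question posed by the study's title is how single macronutrients act on fat tissue and liver. The 6 groups were 8 libraries on chow, 8 on sucrose/palmitate, 7 on starch/palmitate, 9 on sucrose/oleate, 9 on starch/oleate and 7 on Western diet. The first 4 diets after chow were custom diets that pair a carbohydrate (sucrose or starch) with a fat (the saturated palmitate or the monounsaturated oleate), and the Western diet was a commercial adjusted-fat diet. All 5 were described as supplying 42% of calories from carbohydrate and 42% from fat, and every group was fed for 6 months. The labels used here give no age at the start, and the mice carried no transgene or deletion named in them. Samples are numbered within a group, and nothing states outright that each number is a separate mouse, so p-values measure the spread between these libraries. Each receptor level below is a scaled count, that is, the barcode count divided by the library's size factor from the geometric mean of 14 reference genes. Because the tissue was lysed whole, fewer cells of a type and less RNA per cell cannot be told apart.

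Counts over all gene probes ran from 396391 to 888687 per library (median 635028.5), and the negative control probes averaged 7.51 counts with a highest value of 21. The dimmest receptor value, a raw count of 23 for Fcgr4 in chow replicate 4, lay just above that highest negative control, and the next was 59. A group of 9 libraries, named below as set apart, had a high sum of 4 epithelial genes (Ceacam1, Defb1, Muc1 and Pigr). These were chow replicate 4, starch/palmitate replicates 1, 3 and 5, starch/oleate replicates 2, 4 and 6, and Western diet replicates 2 and 6. Their sums ran from 573 to 29720, against a median of 228 over all libraries. The ratio of the spike-in positive controls A and B was 3.17 to 3.39 in chow but 2.92 to 3.16 in starch/palmitate and 2.92 to 3.07 in sucrose/oleate. It was 3.11 to 3.28 in starch/oleate, so that sucrose/oleate lay apart from that diet too. In these comparisons (both diets with chow, and sucrose/oleate with starch/oleate) the diet and whatever set the spike-in ratio cannot be told apart. The Western diet range, 3.27 to 3.43, and that of starch/palmitate each overlapped the starch/oleate range at an end only. Diet and spike-in ratio are thus poorly separated in those comparisons with starch/oleate too. The same holds for the interaction of carbohydrate and fat. It sets starch/palmitate and sucrose/oleate, where the ratio was low, against starch/oleate and sucrose/palmitate (2.99 to 3.56). All 5 diets share the same chow libraries. The median of all genes tested rose against chow by 0.19 to 0.34 on the log2 scale with reference-gene scaling, and by 0.01 to 0.08 with scaling to the endogenous genes (TMM).

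Fcgr1 lies apart from the others, on chromosome 3, whereas Fcgr2b, Fcgr4 and Fcer1g lie on chromosome 1. In the RefSeq annotation (GRCm38.p6) Fcgr4 sits between Fcgr2b and Fcgr3. RefSeq promoter windows matched all 4 genes. The 250 bases before the start of the 3 receptor genes are given because Fcgr1 and Fcgr4 rose on the same 4 diets while Fcgr2b did not follow them. They span chr3:96293970-96294219 on the minus strand for Fcgr1, chr1:171018676-171018925 on the plus strand for Fcgr4 and chr1:170976072-170976321 on the minus strand for Fcgr2b. Each is written 5′ to 3′ along the gene, with capitals for matches to 2 motifs. These are TTCNNNGAA, the form of the gamma-interferon activation site, and GAGGAA (or TTCCTC on the opposite strand). GAGGAA is one form of the site bound by the myeloid factor PU.1, and the shorter GGAA within it was not searched.
Fcgr1: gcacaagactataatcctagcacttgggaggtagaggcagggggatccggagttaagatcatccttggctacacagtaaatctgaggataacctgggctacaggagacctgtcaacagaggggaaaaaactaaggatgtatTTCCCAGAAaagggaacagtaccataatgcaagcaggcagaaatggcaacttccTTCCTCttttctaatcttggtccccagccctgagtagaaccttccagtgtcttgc
Fcgr4: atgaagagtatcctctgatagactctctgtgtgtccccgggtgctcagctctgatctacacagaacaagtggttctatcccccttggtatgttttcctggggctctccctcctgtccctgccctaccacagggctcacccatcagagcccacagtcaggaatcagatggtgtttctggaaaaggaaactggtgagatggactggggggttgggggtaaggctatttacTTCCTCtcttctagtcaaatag
Fcgr2b: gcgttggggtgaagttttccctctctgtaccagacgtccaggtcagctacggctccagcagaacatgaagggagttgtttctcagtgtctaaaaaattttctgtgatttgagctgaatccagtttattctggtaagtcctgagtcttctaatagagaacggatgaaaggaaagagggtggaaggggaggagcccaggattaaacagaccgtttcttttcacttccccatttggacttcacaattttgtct
In the Fcgr1 window TTCCCAGAA lay 109 to 101 bases before the start and TTCCTC 55 to 50 bases before it. In the Fcgr4 window TTCCTC lay 22 to 17 bases before the start. The Fcgr2b and Fcer1g windows held 0 matches to either motif on either strand. Of 32851 RefSeq promoter windows of the same length, 7.02% held TTCNNNGAA, 23.25% held GAGGAA and 1.62% held both. The motifs do not overlap each other in these windows. A match describes the letters and is not a shown binding site. Other forms of these sites were not searched, so 0 matches does not mean that a window lacks a site for PU.1. GGAA without the preceding GA does occur in the Fcgr2b window.

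Across the 6 diets each gene differed (edgeR quasi-likelihood F test, adjusted p = 9.93e-04 for Fcgr1, 1.47e-04 for Fcgr4, 1.39e-07 for Fcgr2b and 3.63e-05 for Fcer1g), as did 64.8% of the genes tested. The activating receptors and the common chain were above chow in the mean on every diet, while the inhibitory receptor was raised on 1 diet, lowered on 1 and did not pass on the remaining 3. On starch/oleate all 4 genes rose, where 48.3% of genes were called higher and 12% lower. On Western diet Fcgr1, Fcgr4 and Fcer1g rose (32.8% of genes called higher) and Fcgr2b fell (7.94% called lower). On sucrose/oleate Fcgr1, Fcgr4 and Fcer1g rose (28.9% called higher, 7.74% lower), and on starch/palmitate Fcgr1 and Fcgr4 rose (20.6% called higher, 4.68% lower). On sucrose/palmitate 0 of the 4 genes passed in edgeR, where 14.9% of genes were called higher and 2.24% lower (84 genes, or 23 to 112 when 1 library was left out, the fewest without sucrose/palmitate replicate 1). Fcgr1 alone had an unadjusted p under 0.05 there, and it passed in DESeq2 (adjusted p = 0.0462). Being called higher on at least 4 of the 5 diets, as Fcgr1 and Fcgr4 were, was true of 13.4% of the genes tested. The direction of calls over all genes depended on the scaling. With TMM the shares called higher were 6.92% on sucrose/palmitate, 14.7% on starch/palmitate, 21.6% on sucrose/oleate, 31.8% on starch/oleate and 20.6% on Western diet, and the shares called lower were 5.91%, 11.2%, 15.5%, 25.9% and 14.3%. No call on these 4 genes against chow changed with TMM.

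**Figure D1:**
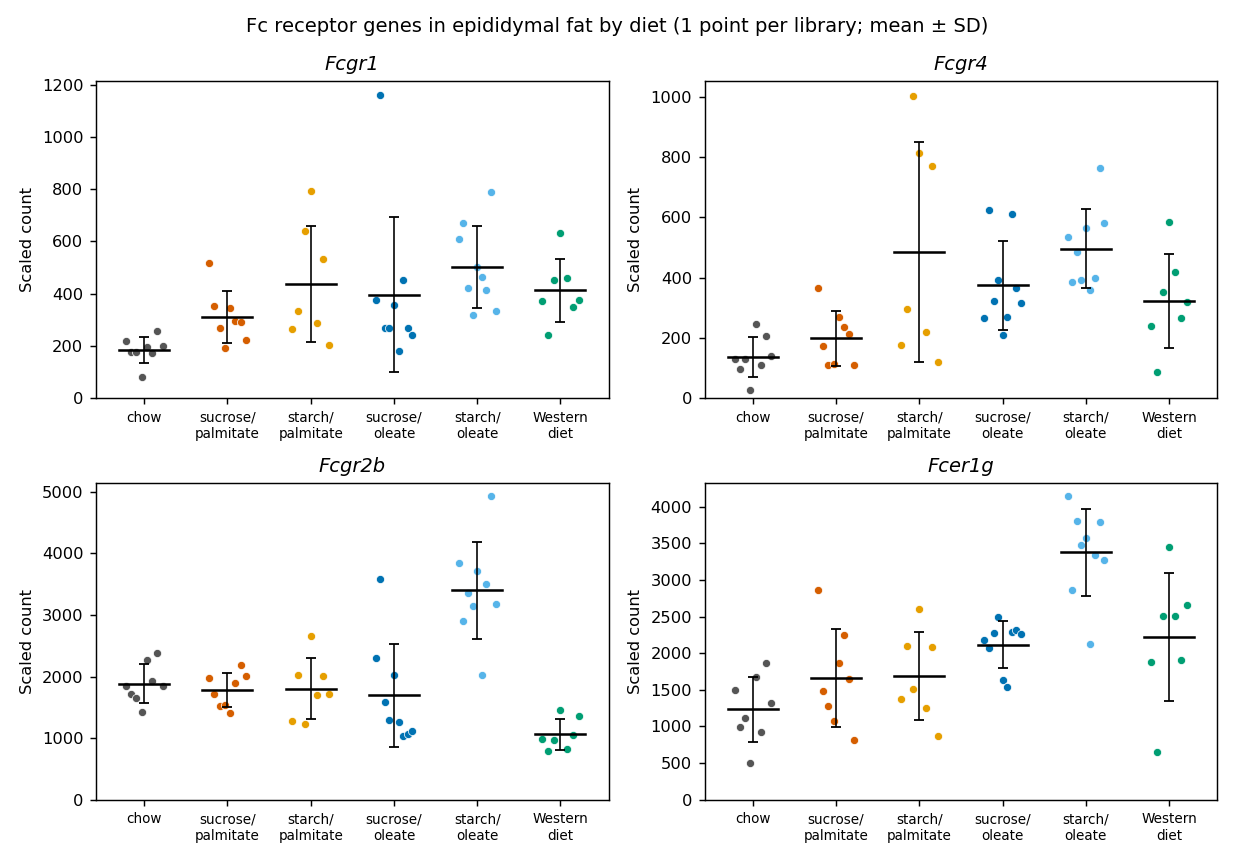
Scaled counts (linear axis from 0) of Fcgr1, Fcgr4, Fcgr2b and Fcer1g in each library, grouped by diet, with a bar at the group mean and whiskers of 1 SD. Fcgr2b is the gene whose Western diet libraries, 790 to 1455, lie mostly below chow, while its starch/oleate libraries, 2031 to 4939, lie mostly above.

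Fcgr1 counts on chow ranged from 79.6 through a median of 185.7 to 256.5. On starch/oleate they ranged from 318 through 462 to 789, so that all 9 libraries lay above all 8 chow libraries, a separation that 19.6% of genes showed in this direction. That was a rise of 1.45 ± 0.29 (log2, SE; 2.73-fold; edgeR adjusted p = 3.60e-05). On Western diet the range was 243 to 631 with a median of 377, and 6 of 7 libraries exceeded all chow libraries (1.16 ± 0.30, adjusted p = 0.00202). On the palmitate diets some libraries overlapped chow. On starch/palmitate the counts ran from 202.4 through 334 to 793, with 6 of 7 above all of chow (1.24 ± 0.30, adjusted p = 0.00276). On sucrose/palmitate they ran from 193 through 294 to 519, and although 6 of 8 exceeded all of chow, the difference did not pass (0.76 ± 0.29, adjusted p = 0.0615). It passed when chow replicate 7, sucrose/palmitate replicate 4 or sucrose/palmitate replicate 8 was left out (adjusted p from 0.0418 to 0.0474). The sucrose/oleate group held 1 extreme library. Its counts ran from 179 through 269 to 1161, the last in replicate 2, and 7 of 9 lay above all of chow (1.11 ± 0.29, adjusted p = 0.00222). Without replicate 2 the difference was 0.71 (adjusted p = 0.0198). The order of the group means fell from starch/oleate (503 ± 158, SD) through starch/palmitate (436 ± 222), Western diet (412 ± 120) and sucrose/oleate (396 ± 298) to sucrose/palmitate (311 ± 99.8) and chow (184 ± 50.5). Between neighbours in that order, the step from sucrose/palmitate to chow alone was larger than the pooled SD.

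Fcgr4 had the largest rise of the 4 genes on starch/palmitate, sucrose/oleate, starch/oleate and Western diet. On chow its counts ran from 27.8 through 129.5 to 246, the lowest in replicate 4, and on starch/oleate from 357 through 486 to 762. All 9 starch/oleate libraries lay above all of chow, a rise of 1.87 ± 0.37 (3.65-fold; edgeR adjusted p = 3.26e-05). On sucrose/oleate 8 of 9 libraries did so, with counts of 209 through 323 to 624 (1.46 ± 0.36, adjusted p = 0.00150). The starch/palmitate group split widely. Its 7 libraries gave 120, 176, 218, 295, 770, 814 and 1004, and 4 of them lay above all of chow (1.84 ± 0.38, adjusted p = 5.49e-04). The highest of these, replicate 3, also had the highest epithelial sum of the study, 29720. Without the libraries set apart the rise was 1.73 (adjusted p = 0.00176). On Western diet the counts ran from 84.9 through 319 to 585, with 5 of 7 above all of chow (1.25 ± 0.38, adjusted p = 0.00704). On sucrose/palmitate they ran from 109 through 193 to 367 and 2 of 8 exceeded all of chow (0.55 ± 0.37, adjusted p = 0.285). The order of means was starch/oleate (496 ± 130), starch/palmitate (485 ± 364), sucrose/oleate (375 ± 148), Western diet (323 ± 156), sucrose/palmitate (198 ± 91.7) and chow (136 ± 66.4), and no neighbouring means differed by more than their pooled SD. With the A to B spike-in ratio added to the model, the calls on sucrose/oleate and starch/palmitate were lost for both activating receptors. Fcgr1 then gave 0.99 (adjusted p = 0.183) and 1.13 (adjusted p = 0.124), and Fcgr4 0.91 (adjusted p = 0.308) and 1.30 (adjusted p = 0.166), in that order of diets. Those on starch/oleate and Western diet passed in that model too (adjusted p = 2.86e-04 and 0.00206 for Fcgr1, 5.11e-04 and 0.00476 for Fcgr4).

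Fcgr2b, the inhibitory receptor, did not follow the other 3. Chow libraries ranged from 1428 through 1851 to 2388. Western diet libraries ranged from 790 through 981 to 1455, so that 6 of 7 lay below all of chow, a fall of 0.83 ± 0.20 on the log2 scale (1.78-fold lower; edgeR adjusted p = 0.00119). Starch/oleate libraries ranged from 2031 through 3358 to 4939, and 8 of 9 lay above all of chow (0.85 ± 0.19, 1.80-fold higher, adjusted p = 1.73e-04). Being called higher on 1 diet and lower on another against the same chow libraries was shared by 3 of the 491 genes (0.611%), the others being Cd97 and Il2ra. This share was counted with reference-gene scaling alone. With TMM more genes were called lower (25.9% against 12% on starch/oleate, 14.3% against 7.94% on Western diet), and the share was not computed there. Set directly against each other, the 7 Western diet libraries all lay below the 9 starch/oleate libraries, as 0.611% of genes did. That difference was 3.20-fold (log2 -1.68 ± 0.20, adjusted p = 7.46e-08, where 10.4% of genes were called lower). This comparison was added after the values had been seen, and it was fitted in the main model alone, with none of the alternatives. In the same comparison Fcgr1 differed by -0.29 ± 0.29, Fcgr4 by -0.62 ± 0.37 and Fcer1g by -0.60 ± 0.24, and these did not pass (adjusted p from 0.0771 to 0.543). The other 3 diets gave log2 differences from chow of -0.08 ± 0.19 (sucrose/palmitate, libraries from 1408 to 2193), -0.06 ± 0.20 (starch/palmitate, libraries from 1229 to 2659) and -0.15 ± 0.19 (sucrose/oleate, libraries from 1036 to 3579). The 95% intervals of these differences reached from -0.46 to 0.30, from -0.46 to 0.33 and from -0.52 to 0.21. Their adjusted p lay between 0.559 and 0.832. The sucrose/oleate range again depended on replicate 2, which was highest. Of the 9 sucrose/oleate libraries 5 lay below all of chow, and the difference without replicate 2 was -0.37 (adjusted p = 0.0825). In the order of means, starch/oleate (3400 ± 783) stood above chow (1884 ± 315) by more than the pooled SD. Chow, starch/palmitate (1802 ± 492), sucrose/palmitate (1783 ± 281) and sucrose/oleate (1694 ± 833) did not differ from their neighbours beyond it, and sucrose/oleate exceeded Western diet (1061 ± 253) by slightly more than it.

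Fcer1g, the common chain, was highest on starch/oleate. Chow libraries ranged from 507 through 1219 to 1869 and starch/oleate libraries from 2125 through 3479 to 4145, with no overlap (1.45 ± 0.24, 2.73-fold; edgeR adjusted p = 2.63e-06). On Western diet the counts ran from 650 in replicate 2 through 2507 to 3449, and the 6 libraries other than replicate 2 exceeded all of chow (0.85 ± 0.25, adjusted p = 0.00570). Without the libraries set apart, of which replicate 2 is a member, that rise was 0.96 (adjusted p = 9.58e-04). On sucrose/oleate the counts were tight, 1536 through 2262 to 2498, with 7 of 9 above all of chow (0.78 ± 0.24, adjusted p = 0.00820), and the call was lost with the spike-in ratio in the model (0.67, adjusted p = 0.274). On the palmitate diets the groups overlapped chow. Sucrose/palmitate gave 810 through 1568 to 2865 (0.42 ± 0.24, adjusted p = 0.203), and starch/palmitate 872 through 1507 to 2606 (0.45 ± 0.25, adjusted p = 0.169). The means ran in the order starch/oleate (3377 ± 594), Western diet (2224 ± 870), sucrose/oleate (2118 ± 325), starch/palmitate (1685 ± 600), sucrose/palmitate (1659 ± 665) and chow (1237 ± 443), and of these steps the one from starch/oleate to Western diet exceeded the pooled SD.

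**Figure D2:**
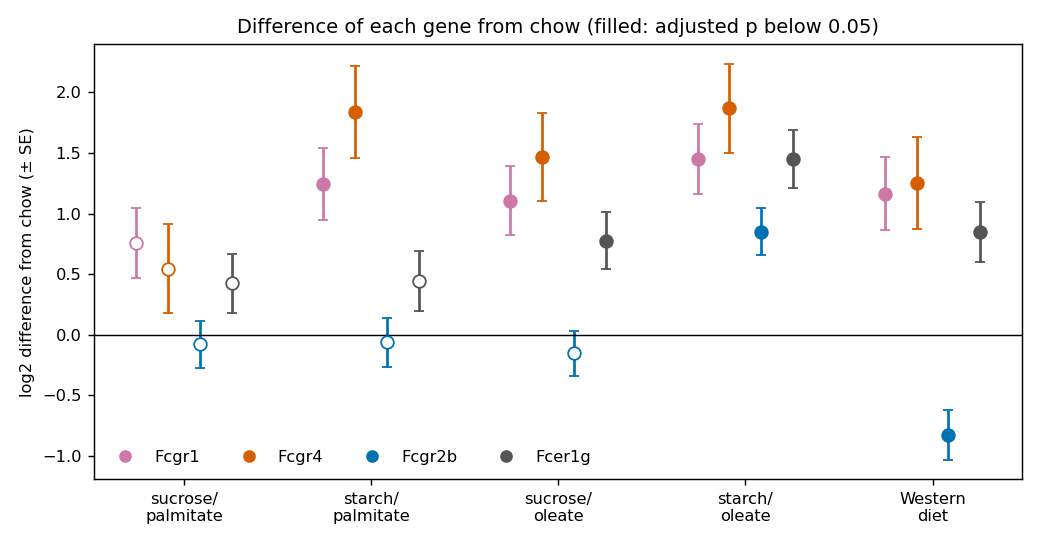
Log2 difference from chow (vertical axis, bars of 1 SE, edgeR) for each gene on each diet, filled where the adjusted p was below 0.05. Fcgr1 and Fcgr4 sit above Fcgr2b on all 5 diets, and Fcgr2b is at 0.85 on starch/oleate and at -0.83 on Western diet.

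The custom diets form a design of 2 carbohydrates by 2 fats. The fat contrast, the mean of both palmitate diets minus that of both oleate diets, lowered the common chain and the inhibitory receptor. Fcer1g fell by 0.68 ± 0.17 on the log2 scale (edgeR adjusted p = 0.00246) and Fcgr2b fell by 0.42 ± 0.14 (adjusted p = 0.0144), where 23.6% of genes were called lower with palmitate and 10.8% higher (18.7% and 20.4% with TMM, under which both genes passed too). Fcgr1 (-0.28 ± 0.20, adjusted p = 0.298) and Fcgr4 (-0.47 ± 0.25, adjusted p = 0.139) did not pass. The carbohydrate contrast, sucrose minus starch, was negative for all 4. It passed for Fcgr4, which fell by 0.85 ± 0.25 (adjusted p = 0.0318), and for Fcgr2b, which fell by 0.51 ± 0.14 (adjusted p = 0.0122), with 5.91% of genes called lower and 4.07% higher (4.89% and 6.11% with TMM). The Fcgr4 call rested on single libraries. It was lost when any 1 of 8 libraries was left out: sucrose/palmitate replicates 4 and 8, starch/palmitate replicates 3, 4 and 6, sucrose/oleate replicates 5 and 6, and starch/oleate replicate 8 (adjusted p from 0.0522 to 0.0862). It was also lost with the replicate number as a block (-0.82, adjusted p = 0.0776). Fcgr1 gave -0.42 ± 0.20 (adjusted p = 0.184), and -0.61 (adjusted p = 0.0160) without sucrose/oleate replicate 2. Fcer1g gave -0.35 ± 0.17 (adjusted p = 0.184), and -0.50 (adjusted p = 0.0287) without the libraries set apart.

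Only Fcgr2b among the 4 genes passed the test of whether the carbohydrate step differs between the fats (interaction 0.99 ± 0.27, edgeR adjusted p = 0.0240, where 4.07% of genes were called in this direction, or 3.05% with TMM, and 1.43%, or 3.46%, in the other). With oleate, sucrose was lower than starch by a factor of 2.01 (log2 -1.01 ± 0.18, adjusted p = 1.92e-04, 9.98% of genes called lower and 6.31% with TMM), and -1.06 (adjusted p = 0.00232) with the spike-in ratio in the model. Of 9 sucrose/oleate libraries 7 lay below all of starch/oleate, and replicate 2 alone lay above the starch/oleate mean. With palmitate the same step was -0.02 ± 0.20 (adjusted p = 0.983). Read the other way, palmitate was lower than oleate with starch (-0.92 ± 0.20, adjusted p = 6.69e-04, 24.2% of genes called lower and 15.5% with TMM) and was 0.07 ± 0.19 with sucrose (adjusted p = 0.872). The interaction did not pass with the spike-in ratio in the model (1.10, adjusted p = 0.186) or without the libraries set apart (0.91, adjusted p = 0.0842). Diet and spike-in ratio are poorly separated in this contrast. Over all genes tested, 27 were called in it without the ratio in the model and 0 with it. The interaction terms of Fcgr1 (-0.14 ± 0.40), Fcgr4 (-0.89 ± 0.51) and Fcer1g (0.65 ± 0.34) had adjusted p between 0.307 and 0.899.

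Among single steps, Fcer1g was lower on sucrose/oleate than on starch/oleate (-0.67 ± 0.23, edgeR adjusted p = 0.0376). That call was lost with TMM (-0.52, adjusted p = 0.0569), with the spike-in ratio in the model (-0.74, adjusted p = 0.0766), with the replicate block (-0.67, adjusted p = 0.0629) and without any 1 of 6 libraries, sucrose/oleate replicates 5 and 6 and starch/oleate replicates 1, 3, 5 and 8 (adjusted p from 0.0554 to 0.0739). Fcgr1 gave -0.34 ± 0.27 in that step (adjusted p = 0.400) and -0.74 (adjusted p = 0.0222) without sucrose/oleate replicate 2. Fcer1g was also lower on starch/palmitate than on starch/oleate (-1.002 ± 0.25, adjusted p = 0.00261). Fcgr4 was lower on sucrose/palmitate than on starch/palmitate by a margin that did not pass (-1.29 ± 0.38, adjusted p = 0.0528) and that passed with TMM (-1.24, adjusted p = 0.0380) and in DESeq2 (-1.29, adjusted p = 0.0264). Against the custom diet of sucrose and palmitate, the Western diet lowered Fcgr2b (-0.75 ± 0.20, 6 of 7 libraries below all 8, adjusted p = 0.0196, 3.46% of genes called lower). With the replicate block that adjusted p was 0.0505. Fcgr1 (0.41 ± 0.30), Fcgr4 (0.71 ± 0.38) and Fcer1g (0.42 ± 0.25) did not pass in that comparison. Without the libraries set apart Fcgr4 (0.95, edgeR adjusted p = 0.0435) and Fcer1g (0.65, adjusted p = 0.0383) passed in it.

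To set the activating receptors against the inhibitory one, their count ratio was taken within each library, where the size factor cancels. The size of such a ratio depends on the 2 probes, so it is read between diets and not as a ratio of molecules, and no test was run on it. It combines the differences given above and adds no separate evidence. Where Fcgr2b fell, the ratio to it rises for any gene that did not fall. The share of all genes whose ratio to Fcgr2b separates from chow was not computed. Per 100 Fcgr2b counts, chow libraries held 5.57 through 10.5 to 11.8 Fcgr1 counts. Western diet libraries held 27.8 through 38.1 to 55.4, all 7 above all of chow, with a median 3.64 times that of chow. Sucrose/oleate (14.2 through 20.7 to 43.6) and starch/palmitate (11.8 through 20.8 to 52.1) also lay wholly above chow, and sucrose/palmitate (11.2 through 16.6 to 26.2) in 7 of 8 libraries. Starch/oleate, where both receptors rose, had the smallest shift of the 5 medians, 10.1 through 13.6 to 23.2, and 7 of 9 libraries were above all of chow. Per 100 Fcgr2b counts, Fcgr4 gave 1.94 through 7.28 to 10.9 on chow. On Western diet it gave 10.8 through 25.4 to 50.4, a median 3.49 times that of chow, and on sucrose/oleate 10.3 through 21.3 to 59.0. The 9 starch/oleate libraries clustered narrowly, from 11.4 through 14.5 to 18.3, all above chow. Medians were 14.6 on starch/palmitate and 9.88 on sucrose/palmitate. The lowest Western diet value, 10.8, lay inside the chow range.

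**Figure D3:**
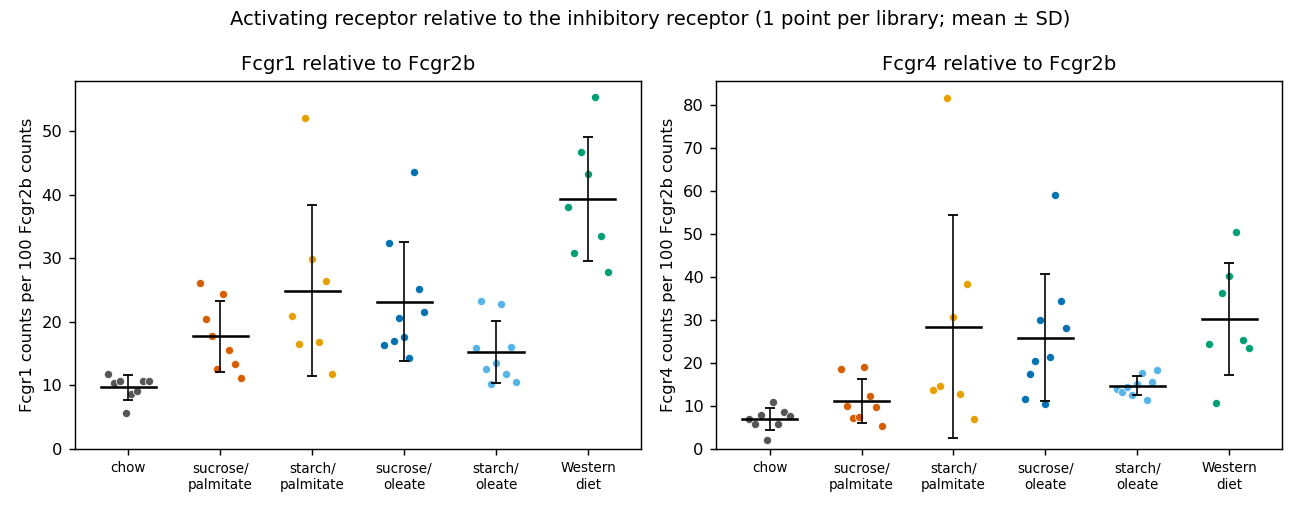
Fcgr1 (left) and Fcgr4 (right) counts per 100 Fcgr2b counts in each library, linear axes from 0, with group mean and SD. All 7 Western diet libraries, at 27.8 or more for Fcgr1, stand above the highest chow library at 11.8.

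To see whether each gene moved with or apart from Emr1, the gene of the macrophage surface marker F4/80, the log2 ratio to Emr1 was compared in an exact two-sided permutation test over libraries, adjusted over 20 tests. Emr1 itself rose on all 5 diets, from 1835 ± 726 on chow to 5261 ± 797 on starch/oleate. Its log2 rise was 0.71 to 1.52 in edgeR, while the median of all genes tested rose by 0.19 to 0.34. A gene that moved like that median would thus also lie lower relative to Emr1 on every diet. Relative to Emr1, Fcgr2b was lower than chow on every diet. The log2 differences were -0.78 ± 0.26 on sucrose/palmitate (exact permutation test, adjusted p = 0.0224), -0.99 ± 0.25 on starch/palmitate (0.00544), -1.49 ± 0.24 on sucrose/oleate (8.23e-04), -0.78 ± 0.16 on starch/oleate (8.23e-04) and -2.04 ± 0.30 on Western diet (0.00124). All 9 sucrose/oleate, 9 starch/oleate and 7 Western diet libraries lay below all of chow. The share of all genes that fall or separate in this way relative to Emr1 was not computed, so neither the fall nor the separation is read as particular to Fcgr2b. The raw p of 8.23e-05 behind the oleate values is the smallest that 8 against 9 libraries can give. On starch/oleate Fcgr2b counts rose (0.85) by less than those of Emr1 (1.52) and by more than the median gene (0.34). On the remaining diets Fcgr2b, at -0.06 to -0.83 against chow, lay below the median gene (0.19 to 0.25).

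Fcer1g was slightly lower relative to Emr1 on 4 diets (-0.28 ± 0.05 to -0.44 ± 0.07, exact permutation test, adjusted p from 0.00110 to 0.00178), and -0.09 ± 0.07 on starch/oleate (adjusted p = 0.297). Fcgr4 was higher relative to Emr1 on starch/oleate (0.43 ± 0.16, exact permutation test, adjusted p = 0.0143). Its difference was larger on starch/palmitate but did not pass (0.74 ± 0.33, unadjusted p = 0.0407, adjusted p = 0.0740). On sucrose/oleate it was 0.36 ± 0.19 (adjusted p = 0.137), on sucrose/palmitate -0.08 ± 0.16 and on Western diet 0.08 ± 0.14. Fcgr1 passed on 0 of the 5 diets, with differences from -0.29 to 0.25. At an unadjusted p under 0.05 that count for Fcgr1 was also 0. The choice of macrophage gene mattered. Itgam, the integrin chain CD11b, passed against chow on starch/oleate alone (edgeR, 0.95 ± 0.22, adjusted p = 2.57e-04), and relative to Itgam the Fcer1g differences turned positive on all 5 diets (0.31 to 0.53). Relative to Itgam, Fcgr4 was higher on all 5 diets (0.51 to 1.54) and Fcgr1 on 4 (0.46 to 1.05), while 0.49 on sucrose/oleate did not pass. For Fcgr2b the direction held under both genes. Relative to Itgam it passed on Western diet (-1.15, exact permutation test, adjusted p = 0.00363) and sucrose/oleate (-0.71, adjusted p = 0.0289), and on the other 3 diets it was -0.16 to -0.20 and did not pass.

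**Figure D4:**
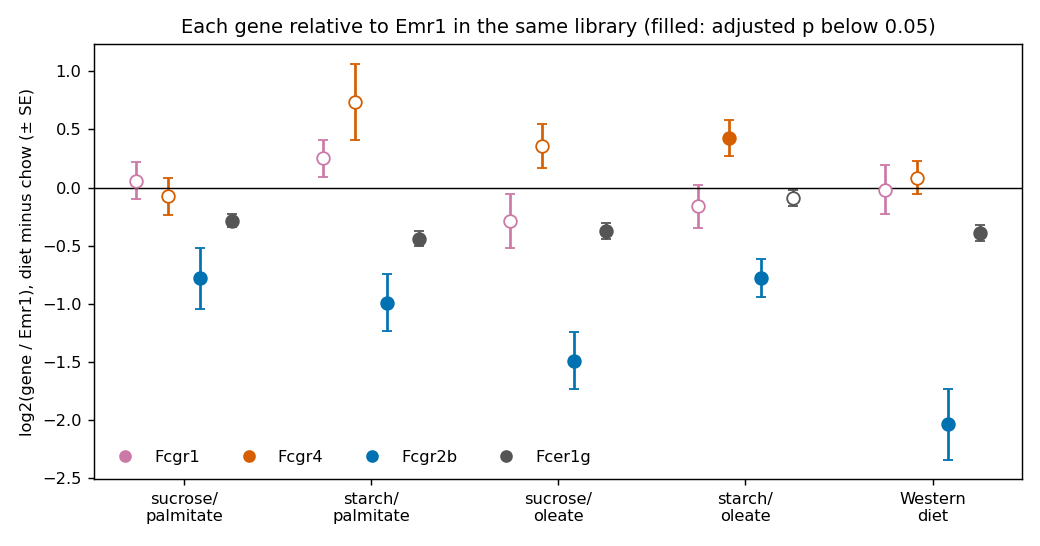
Difference between each diet and chow in the log2 ratio of each gene to Emr1 (vertical axis, bars of 1 SE), filled where the adjusted exact permutation p was below 0.05. Fcgr2b lies below 0 on all 5 diets, down to -2.04 on Western diet. A gene that moved like the median of all genes tested would lie below 0 too. Fcer1g, below 0 here, lay above 0 when Itgam was the denominator.

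Within diets, libraries high in one activating gene tended to be high in the others. Over 48 libraries, the deviations from the diet means correlated at r = 0.82 (rho = 0.77) between Fcgr4 and Fcer1g, and at r = 0.78 (rho = 0.74) between Fcgr1 and Fcgr4 (permutation within diets, adjusted p = 2e-05 for each r and 3e-05 for each rho, from the smallest p that 100000 permutations give). Fcgr1 and Fcer1g gave r = 0.59 (rho = 0.56). The values of Fcgr2b were r = 0.56 (rho = 0.41) with Fcgr1, 0.39 (rho = 0.44) with Fcer1g and 0.34 (rho = 0.32) with Fcgr4 (permutation, adjusted p from 0.00107 to 0.0155 for r). Without the 2 libraries farthest from the median, the value for Fcgr1 and Fcgr2b was 0.39, that for Fcgr4 and Fcer1g 0.76, and that for Fcgr4 and Fcgr2b 0.27. Within single diets the values varied widely for each pair. Fcgr2b with Fcer1g ran from -0.22 on sucrose/oleate to 0.88 on starch/oleate, Fcgr4 with Fcgr2b from 0.06 on sucrose/oleate to 0.87 on chow, and Fcgr1 with Fcgr2b from 0.19 on sucrose/palmitate to 0.80 on chow. Fcgr1 with Fcer1g ran from 0.12 on starch/oleate to 0.94 on chow, Fcgr1 with Fcgr4 from 0.39 on starch/oleate to 0.97 on starch/palmitate, and Fcgr4 with Fcer1g from 0.52 on sucrose/oleate to 0.98 on Western diet. The pairs' values were not tested against each other. In all 6 pairs were examined, and all values share the libraries and their size factors.

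**Figure D5:**
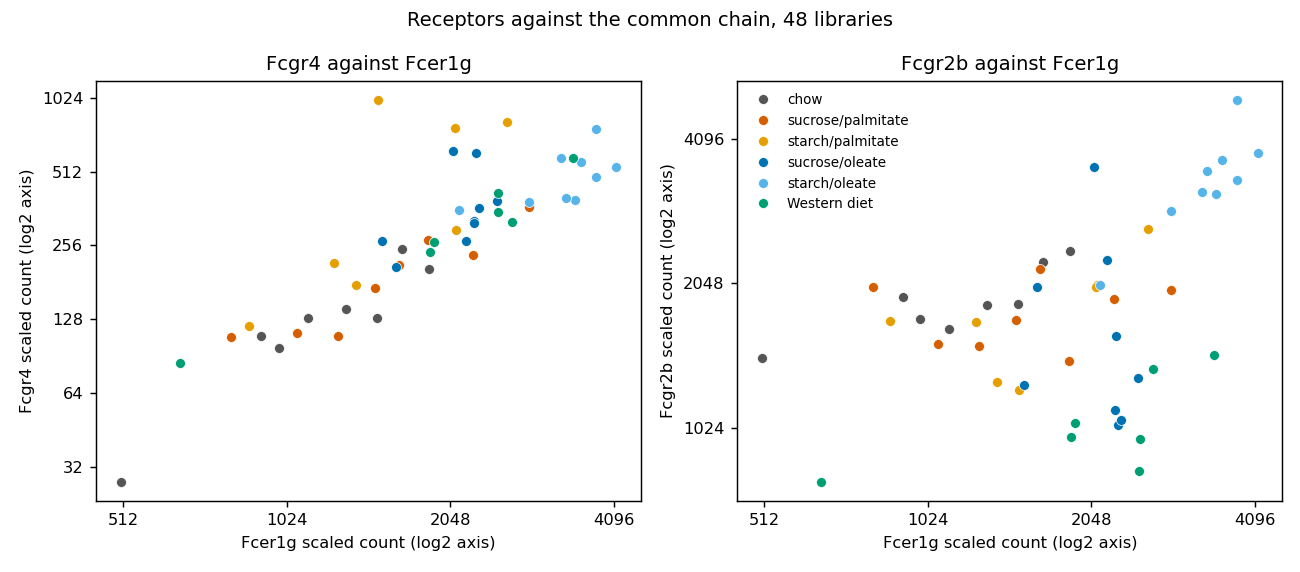
Scaled counts of Fcgr4 (left) and Fcgr2b (right) against Fcer1g, log2 axes, 1 point per library coloured by diet. On the left, libraries higher in Fcer1g tend to be higher in Fcgr4. Starch/palmitate replicates 3, 4 and 6 (1004, 814 and 770.5 for Fcgr4) lie high for their Fcer1g. On the right the Western diet libraries lie low, at 1455 or less for Fcgr2b, although 6 of 7 exceed all chow libraries in Fcer1g.

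The genes most alike in pattern, by Pearson r of log2 scaled counts over the 48 libraries (a description with no test), differed between the 4. For Fcer1g they were Lilrb3 (0.99), Btk (0.98), Cd48 (0.98), Tnfrsf1b (0.98) and Ly96 (0.98). For Fcgr4 they were Ly86 (0.93), Ptpn6 (0.92), Irf8 (0.91), Casp1 (0.91) and Slamf7 (0.91), and for Fcgr1 Pou2f2 (0.88), C1qb (0.86), Tlr2 (0.85), Ly86 (0.85) and Fcgr4 (0.85). For Fcgr2b the values were lower and the genes were others, namely Tfrc (0.82), the transferrin receptor, Cfp (0.81), which encodes properdin, Batf (0.71), Maf (0.70) and Il21r (0.69). Emr1 ranked 6 of 490 genes in likeness to Fcgr4, 13 to Fcgr1, 13 to Fcer1g and 147 to Fcgr2b. Fcgr3, the neighbouring low-affinity activating receptor, ranked 9 for Fcer1g and 12 for Fcgr4. For Fcer1g, Fcgr4 ranked 68 and Fcgr1 109, so many other genes of the panel were more alike to it. For Fcgr4, Fcgr1 ranked 31 and Fcer1g 33, and for Fcgr1, Fcer1g ranked 50. Fcgr2b and Fcgr3 share much of their extracellular coding sequence, and the probe target positions were not used here. Their r over all libraries was 0.48.

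The other Fc receptors on the panel were 4, of which 3 were tested. Fcgr3 rose on sucrose/oleate (0.82 ± 0.24, edgeR adjusted p = 0.00756) and starch/oleate (1.37 ± 0.25, adjusted p = 9.64e-06), and gave 0.57 ± 0.26 on Western diet (adjusted p = 0.0714). Fcer1a, the IgE-binding chain of mast cells, which also needs the common chain, rose on starch/oleate (1.38 ± 0.22, adjusted p = 1.28e-06) and Western diet (0.81 ± 0.23, adjusted p = 0.00442). Fcgrt, the neonatal receptor that recycles IgG, fell by 0.36 ± 0.15 on Western diet (adjusted p = 0.0474). With palmitate against oleate, Fcgr3 (-0.65 ± 0.18) and Fcer1a (-0.39 ± 0.15) were lower. Besides Fcer1a, Clec4e, a sensor of mycobacterial lipid that pairs with the common chain, was measured, and it rose on starch/oleate (0.80 ± 0.32, adjusted p = 0.0264).

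Of 9 kinases and adaptors of ITAM signalling, 1 rose on sucrose/palmitate, 3 on starch/palmitate, 7 on sucrose/oleate, 8 on starch/oleate and 6 on Western diet, and 0 fell in edgeR, also at an unadjusted p under 0.05. Beside these and the list counts that follow, 14.9%, 20.6%, 28.9%, 48.3% and 32.8% of all genes tested were called higher on these diets, and 2.24%, 4.68%, 7.74%, 12% and 7.94% lower. Card9, an adaptor downstream of Syk, rose on all 5 diets (0.47 ± 0.17 to 1.00 ± 0.16), and Tyrobp, the adaptor DAP12, rose on sucrose/oleate (1.11 ± 0.27), starch/oleate (1.52 ± 0.27) and Western diet (0.89 ± 0.28). The T cell kinase Lck rose on starch/palmitate (0.75 ± 0.18), sucrose/oleate (0.63 ± 0.17), starch/oleate (0.97 ± 0.17) and Western diet (0.57 ± 0.18). With palmitate against oleate 6 of the 9 were lower (23.6% of all genes), led by Syk (-0.61 ± 0.14, edgeR adjusted p = 8.56e-04), Btk (-0.66 ± 0.16) and Tyrobp (-0.72 ± 0.19). The list's median on starch/oleate was 0.91, beside 0.34 over all genes tested.

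Of 8 inhibitory receptors and phosphatases other than Fcgr2b, 4, 4, 6, 6 and 5 rose on sucrose/palmitate, starch/palmitate, sucrose/oleate, starch/oleate and Western diet, where 14.9%, 20.6%, 28.9%, 48.3% and 32.8% of all genes tested were called higher. Ptpn6, the phosphatase SHP-1 recruited by inhibitory receptors, rose on all 5 diets (0.79 ± 0.21, 1.09 ± 0.22, 1.28 ± 0.21, 1.72 ± 0.21 and 1.30 ± 0.22). So did Lair1, an inhibitory collagen receptor (1.04 ± 0.27, 1.37 ± 0.28, 2.02 ± 0.27, 2.10 ± 0.27 and 1.80 ± 0.28). Cd22 and Ptpn22, which act in lymphocytes, also rose on all 5. Their median on Western diet was 1.02, beside 0.25 over all genes. With palmitate against oleate 5 of the 8 were lower (23.6% of all genes, or 18.7% with TMM), led by Lair1 (-0.86 ± 0.19, edgeR adjusted p = 6.34e-04).

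In myeloid cells interferon gamma is a known inducer of Fcgr1 and Fcgr4, and interleukin 4 of Fcgr2b. Of 11 genes of the interferon gamma axis 1, 4, 3, 3 and 3 rose on the diets in the same order, and 0, 0, 0, 1 and 1 fell. The share that rose was above that of all genes on starch/palmitate (20.6%) and below it on the other 4 diets (14.9%, 28.9%, 48.3% and 32.8%). Cxcl10, an interferon-induced chemokine, rose on all 5 (1.12 ± 0.38, 2.01 ± 0.39, 1.31 ± 0.37, 1.69 ± 0.37 and 1.76 ± 0.39). Its mean scaled count on chow, 18.7, lay under the highest negative control count, 21. Irf8, a myeloid transcription factor, rose on all but sucrose/palmitate (0.66 ± 0.19 to 1.07 ± 0.18). Irf1 rose on starch/palmitate (0.57 ± 0.18, edgeR adjusted p = 0.0167). The receptor chain Ifngr1 fell by 0.36 ± 0.09 on starch/oleate and by 0.36 ± 0.10 on Western diet, where its partner Ifngr2 rose by 0.44 ± 0.09 on each. The list's medians, 0.07 to 0.38, lay beside 0.19 to 0.34 for all genes. Of 5 tested genes of the interleukin 4 axis, the receptor chain Il13ra1 rose on all 5 diets (0.47 ± 0.11 to 0.75 ± 0.11), Stat6 rose on starch/oleate (0.22 ± 0.07) and Irf4 fell on sucrose/oleate by 0.45 ± 0.17 and on starch/oleate by 0.43 ± 0.17. Of 5 tested genes that bind or clear immune complexes, 0, 2, 2, 4 and 2 rose and 0, 0, 0, 1 and 1 fell. C1qa and C1qb, chains of the complement component that binds IgG complexes, rose on starch/oleate (1.16 ± 0.22 and 1.26 ± 0.25), Western diet (0.83 ± 0.23 and 0.87 ± 0.26), starch/palmitate (0.80 ± 0.23 and 0.81 ± 0.26) and sucrose/oleate (0.76 ± 0.22 and 0.78 ± 0.24). C1qbp, which is mitochondrial, was the gene that fell.

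Markers of several cell types also differed from chow. The share of all genes called higher, against which each count is read, was 14.9%, 20.6%, 28.9%, 48.3% and 32.8% on the diets in the same order, and the share called lower 2.24%, 4.68%, 7.74%, 12% and 7.94%. Of 9 macrophage markers 3, 4, 5, 7 and 5 rose and 0, 1, 2, 1 and 2 fell, Cd163 and Marco, both of resident macrophages, being those that fell. Their summed scaled counts were 3562 through 8307 to 12100 on chow, 6777 through 12190 to 20130 on sucrose/palmitate and 7326 through 12090 to 17850 on starch/palmitate. On sucrose/oleate they were 14110 through 18170 to 20980, on starch/oleate 15010 through 22050 to 26190 and on Western diet 4876 through 19670 to 23590. The oleate diets thus lay wholly above chow. Of 7 tested B cell markers 6, 2, 3, 7 and 7 rose and 0 fell in edgeR, also at an unadjusted p under 0.05. Fcgr2b was thus lower on Western diet while Ms4a1 (1.57 ± 0.44) and Cd22 (1.30 ± 0.27), which mark B cells, were higher there (edgeR adjusted p = 0.00423 and 2.01e-04). The summed B cell markers were 470 to 2015 on chow and 1103 to 4141 on Western diet. Neutrophil markers, whose cells also carry Fcgr4 and Fcer1g, rose in 0, 0, 2, 3 and 0 of 5 tested genes, with summed medians of 739 on chow, 837 on sucrose/palmitate, 802 on starch/palmitate, 590 on sucrose/oleate, 946 on starch/oleate and 546 on Western diet. The highest library, 5323, was on sucrose/oleate. Mast cell markers rose in 1, 0, 1, 3 and 3 of 3, and their sums ran from 224 to 339 on chow and from 367 to 767 on starch/oleate. Natural killer markers rose in 2, 3, 5, 6 and 2 of 7, and their sums ran from 153 to 431 on chow and from 431 to 916 on starch/oleate. T cell markers rose in 1, 5, 4, 6 and 3 of 7, and dendritic cell markers in 2, 3, 2, 3 and 2 of 4. Some tested markers had mean scaled counts on chow under 21, the highest negative control count. These were Cd8a (7.29), Cd8b1 (11.15), Cd28 (16.15) and Cd3e (20.45) of T cells, and Gzmb (8.57) and Eomes (9.65) of natural killer cells. Pax5 (12.25) of B cells, and Ltf (10.1) and Cxcr2 (18.5) of neutrophils, were so too. Adipocyte markers fell in 3, 3, 2, 2 and 3 of 3, and endothelial markers in 0, 0, 2, 3 and 2 of 3. The part of these cell types in the results on the Fc receptor genes was not tested.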

How the data were processed

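Gene expression was measured with the nCounter Mouse Immunology panel, a hybridisation assay that counts colour barcodes, per the labels' design text. The authors deposited raw barcode counts per probe for 48 libraries, with no normalisation, as whole numbers per the deposited table, and the software that made the counts is not given in the sources used here. Total gene probe counts ran from 396391 to 888687. Counts were divided by size factors from the geometric mean of 14 reference genes. Endogenous genes whose counts averaged 10 or more (491 of 547) entered one edgeR 4.0.16 quasi-likelihood model with 1 mean for each diet (R 4.3.3), and p-values were adjusted over all genes tested by the Benjamini-Hochberg method with a threshold of 0.05. SE is the log2 fold change divided by the square root of its F statistic. Ratios to Emr1 and correlations were tested by permutation over libraries (scipy 1.17.1). The scripts were tested on simulated data. Libraries differed from each other beyond counting noise in all 1128 pairs (lowest chi-square per degree of freedom 5.14), so each counts once.

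The alternatives were TMM scaling, other filters, DESeq2 1.42.0, the compared groups only, the spike-in ratio in the model, the replicate block, Itgam for Emr1, and leaving out each library. Same-numbered libraries of different diets did not deviate together (mean correlation -0.015 over 112 pairs, against 0.0063 over 846 pairs of different numbers), so the numbers were not taken as pairing. The 4 genes and all lists were chosen with earlier results of these data known. Named genes are the 4, the 5 most alike to each, up to 3 called genes of smallest p per list and comparison, and the markers; others named in a count, such as Cd97, Il2ra, Ifngr1, C1qbp, Irf4 and Stat6, were chosen after their values were seen. Promoter sequences came from RefSeq.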

Additional observations from a re-analysis of the deposited data

Results flagged for a closer look

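Of 48 groups of values examined (4 genes by 6 diets, as scaled counts and as ratios to Emr1), 6 held a library far from the others of its group, where chance gives about 1 in 20 groups. Sucrose/oleate replicate 2 had the highest Fcgr1 scaled count of its diet, 1161, against 452 or less in the other 8 libraries, and the highest Fcgr2b scaled count, 3579. Its log2 ratio of Fcgr1 to Emr1, -2.10, was the highest of its diet too. Chow replicate 4 had the lowest Fcgr1 scaled count on chow, 79.6, and the lowest log2 ratio of Fcgr4 to Emr1, -4.72. Western diet replicate 2 had the highest log2 ratio of Fcgr1 to Emr1 of its diet, -2.30. Chow replicate 4 and Western diet replicate 2 are among the libraries with high epithelial genes. Fcgr2b differed between groups in another way: the step from starch to sucrose was not the same with palmitate as with oleate (edgeR interaction 0.99). That call was lost with the spike-in ratio in the model (adjusted p = 0.186) and without the libraries set apart (adjusted p = 0.0842). The Western diet and starch/oleate groups of Fcgr2b lay on opposite sides of chow, apart by a log2 difference of -1.68. That difference passed its own edgeR test, which was run in the main model alone.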

How the results depend on the processing

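Over the 4 genes, the 13 comparisons and the overall test, alternatives other than leaving out a library gave 444 values, of which 420 kept direction and side of the threshold, 12 lost a call, 7 gained one and 5 turned direction. Leaving out each library gave 1232, of which 1185 kept both, 14 lost a call, 10 gained one and 23 turned. With the spike-in ratio in the model calls were lost for Fcgr1 (starch/palmitate 1.13, sucrose/oleate 0.99), Fcgr4 (1.30, 0.91), Fcer1g (sucrose/oleate 0.67) and the Fcgr2b interaction (1.10), and small differences turned: the Fcgr1 interaction (0.0118) and the sucrose step with palmitate of Fcgr2b (0.0356) and Fcer1g (0.0376). With the replicate number as a block the Fcgr4 carbohydrate contrast (-0.82), Western diet against sucrose/palmitate for Fcgr2b (-0.74) and the sucrose step with oleate for Fcer1g (-0.67) did not pass, and the block changed no other call on the 4 genes. DESeq2 called Fcgr1 on sucrose/palmitate (0.76). TMM turned the palmitate step with starch of Fcgr4 (0.0566). Leaving out the libraries set apart by epithelial genes, chosen after seeing the data, turned Fcgr2b on starch/palmitate (0.11), lost its interaction (0.91) and gained the Fcer1g carbohydrate contrast (-0.50). It also gained Western diet against sucrose/palmitate for Fcgr4 (0.95) and Fcer1g (0.65), and the palmitate step with sucrose for Fcgr4 (-0.92). Ranges on leaving out 1 library, where a call or direction changed, were 0.611 to 0.840 for Fcgr1 on sucrose/palmitate, -0.614 to -0.309 for its carbohydrate contrast, -0.290 to 0.253 for its interaction, -0.740 to -0.237 for its sucrose step with oleate and -0.495 to 0.0477 for its palmitate step with sucrose. They were -0.942 to -0.707 for the Fcgr4 carbohydrate contrast, -1.48 to -1.008 for its sucrose step with palmitate, -0.314 to 0.139 for its palmitate step with starch, -0.183 to 0.0105 for Fcgr2b on starch/palmitate, and, for the sucrose step with palmitate, -0.0905 to 0.103 (Fcgr2b) and -0.182 to 0.115 (Fcer1g), with -0.738 to -0.624 for the sucrose step with oleate of Fcer1g. Relative to Emr1 they were -0.0294 to 0.161, -0.470 to -0.226 and -0.184 to 0.0557 for Fcgr1 (sucrose/palmitate, sucrose/oleate, Western diet), and 0.525 to 0.877 and -0.0394 to 0.128 for Fcgr4 (starch/palmitate, Western diet). With Itgam in place of Emr1, in the order sucrose/palmitate, starch/palmitate, sucrose/oleate, starch/oleate and Western diet, Fcgr1 gave 0.65, 1.05, 0.49, 0.46 and 0.87, Fcgr4 0.51, 1.54, 1.13, 1.05 and 0.98, Fcer1g 0.31, 0.36, 0.40, 0.53 and 0.50, and Fcgr2b -0.19, -0.20, -0.71, -0.16 and -1.15. Counts of genes called that moved by over 1.5 times were, with the spike-in ratio, 84 to 40 (sucrose/palmitate), 124 to 2 (starch/palmitate), 180 to 31 (sucrose/oleate), 27 to 0 (interaction), 10 to 1 (sucrose step with palmitate) and 18 to 1 (palmitate step with sucrose). With the block they went to 55, 29 from 49 (carbohydrate contrast), 1, 2 and 12 from 30 (Western diet against sucrose/palmitate). With the compared groups alone they were 13 (sucrose/palmitate), 0 (sucrose step with palmitate), 151 from 74 (sucrose step with oleate) and 16 (Western diet against sucrose/palmitate). For the palmitate step with sucrose TMM gave 40 and DESeq2 29. Without the libraries set apart they were 82 (starch/palmitate), 74 (carbohydrate contrast), 6 (interaction), 1 and 126 (sucrose step with palmitate and with oleate), 61 (palmitate step with sucrose) and 89 (Western diet against sucrose/palmitate). Leaving out 1 library gave 23 to 112 (sucrose/palmitate), 24 to 61 (carbohydrate contrast, fewest without starch/palmitate replicate 3 or sucrose/oleate replicate 6), 0 to 15 (sucrose step with palmitate, 0 without starch/palmitate replicate 3), 2 to 31 (palmitate step with sucrose, without sucrose/oleate replicates 4 and 6) and 15 to 58 (Western diet against sucrose/palmitate, without sucrose/palmitate replicate 4 and Western diet replicate 2). The cause of these changes was not tested. Cd68 as the denominator was planned and not run, since Cd68 was not analysed here.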
